A study of Mus musculus and Homo sapiens with 12 samples.

Results

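Leukaemic mouse T cells from animals on a diet with 0.8 g/kg valine were compared with those from animals on the control diet with 8 g/kg. The comparison rests on 2 libraries per diet, named TALL2 and TALL3, and on every gene with a mean of at least 1 FPKM (fragments per kilobase of transcript, scaled to the depth of the library) over the 8 mouse libraries. That left 9943 of the 10430 listed genes. All recipients were C57BL/6 mice that carried a secondary transplant of NOTCH-delta E tumours, a T-cell acute lymphoblastic leukaemia (T-ALL) driven by an activated form of the NOTCH receptor. After 3 weeks on 4 diets with 8, 0.8, 0.4 or 0 g/kg valine, the leukaemic cells of the spleen, marked by GFP, were isolated by sorting and their total RNA was sequenced. The sample labels give the dose per kg of diet, while the treatment protocol describes a valine-deficient diet with 0.8 or 0.4 g/L valine in the drinking water, so the intake per animal is not known here. What the names TALL2 and TALL3 mark, and whether each library came from 1 animal, is not given in the labels, so p-values measure only the spread between these libraries.

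Valine is an essential branched-chain amino acid that animals take from food. When an amino acid runs short, uncharged transfer RNA activates the kinase GCN2, general translation slows, and the transcription factor ATF4 is made from its own messenger RNA. ATF4 switches on genes for amino acid synthesis, amino acid uptake and the charging of transfer RNA, of which Asns is the best known. In T-ALL, NOTCH1 drives growth partly through MYC, and rapidly dividing cells draw on amino acids for both protein and energy metabolism.

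ATF4 binds DNA together with a C/EBP protein at a composite site, and such a site in the Asns promoter is known as a nutrient-sensing element. The letters TGATGNAA, read on both strands in the 250 bases before each RefSeq gene start (GRCm38.p6), were found in 1134 of 32851 promoter windows, 3.45%. Among the tested genes with a window, 176 of 7802 held them, 2.26%. Of the 27 tested ATF4 target genes listed for this comparison, 23 had a window and 5 of these, 21.7%, held the letters: Asns, Pck2, Aars, Atf3 and Herpud1. The matches of 3 of them are shown with the flanking bases of the gene's sense strand, 5′ to 3′, and those of Aars and Herpud1 are not shown. Of the 3, Asns and Pck2 were higher in both 0.8 g/kg libraries and Atf3 was not. The capitals mark the match, which in Pck2 and Atf3 is on the other strand.
Asns: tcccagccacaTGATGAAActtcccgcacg
Pck2: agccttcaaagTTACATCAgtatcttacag
Atf3: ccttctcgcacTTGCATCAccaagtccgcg
The stretches lie at chr6:7693214-7693243 (Asns, minus strand), chr14:55540152-55540181 (Pck2, plus) and chr1:191183425-191183454 (Atf3, minus). In the GENCODE M21 annotation the Asns match falls in a non-coding exon of 1 of its 7 transcripts, and those of Pck2 and Atf3 lie in no exon of their gene. A match is a description of these letters and does not show binding.

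The libraries compared held 21253323 (TALL2) and 16085830 (TALL3) recovered reads on the control diet. Those at 0.8 g/kg held 16009143 (TALL2) and 25840513 (TALL3). Like-dieted libraries differed beyond counting noise, most of all at 0.8 g/kg, where chi-square over degrees of freedom was 93.1 against 38.6 to 63.6 on the other diets. In the limma test over all genes, 0 of 9943 passed an adjusted p of 0.05 (0% called), and the smallest adjusted p was 0.998. At an unadjusted p under 0.05 stood 433 genes, 4.35%, of which 114 were higher at 0.8 g/kg (1.15%) and 319 lower (3.21%). limma-voom on the recovered reads also called 0 genes and put 412 under an unadjusted 0.05. With no gene past the threshold, all values are given as differences between libraries. In 1056 genes both 0.8 g/kg libraries exceeded both 8 g/kg libraries (10.6%), and in 2233 they were below them (22.5%), and the median difference over all genes was -0.04 on the log2(FPKM + 1) scale. This excess of lower genes followed the scaling: with median-of-ratios scaling the counts were 1557 and 1648, and the genes at an unadjusted p under 0.05 split into 204 higher and 196 lower. The count at an unadjusted p under 0.05 was 138 with TALL2 at 8 g/kg left out and 719 with TALL3 at 0.8 g/kg left out, with 0 genes called in each case.

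Of the lists with at least 10 tested genes, ATF4 targets had the highest median difference at 0.8 g/kg. For 16 of the 27 tested targets (59.3%, against 10.6% of all genes) the 0.8 g/kg libraries both exceeded the controls, and for 0 they were both below (against 22.5%), and the median difference was 0.45 against -0.04 over all genes. The 0.8 g/kg libraries were unequal: the median difference was 0.17 between the TALL2 libraries and 0.66 between the TALL3 libraries. With TALL3 at 0.8 g/kg left out the list's median was 0.15. Of the 27 targets 5 reached an unadjusted p under 0.05, all higher at 0.8 g/kg, and 0 passed the limma test adjusted over all genes. In bulk RNA, fewer cells of a type and less RNA per cell cannot be told apart.

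Asns makes asparagine and lies on chr6:7675169-7693254, minus strand. It stood at 2.02 (TALL2) and 2.90 FPKM (TALL3) at 8 g/kg and at 5.59 and 47.5 FPKM at 0.8 g/kg. The groups did not overlap, but nearly all of the difference came from the TALL3 library. The fitted log2 difference was 2.38 with a standard error of 0.93 (limma, unadjusted p = 0.042, adjusted p = 0.998), and it was 0.94 with TALL3 at 0.8 g/kg left out and 3.82 with TALL2 at 0.8 g/kg left out. Pck2, the mitochondrial form of PEP carboxykinase, on chr14:55540266-55551242, plus strand, showed the opposite imbalance. It stood at 3.51 and 4.21 FPKM at 8 g/kg and at 18.2 (TALL2) and 9.12 FPKM (TALL3) at 0.8 g/kg. Its log2 difference was 1.52 with a standard error of 0.31 (limma, unadjusted p = 0.0023, adjusted p = 0.998), the second smallest p among the higher genes that the naming rule admits. So the library with the lower Asns had the higher Pck2.

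Psat1, which makes phosphoserine for serine synthesis, stood at 99.2 and 88.0 FPKM at 8 g/kg and at 116 and 174 FPKM at 0.8 g/kg. Mthfd2, a mitochondrial folate enzyme, stood at 43.0 and 37.0 FPKM against 50.7 and 77.7. Sars, which charges transfer RNA with serine, stood at 48.4 and 47.6 FPKM against 57.6 and 75.6. In each of these genes the TALL3 library at 0.8 g/kg was the highest of the 4, and the log2 differences were 0.60, 0.64 and 0.45. Aars, the alanine counterpart of Sars, stood at 29.8 and 30.7 FPKM against 33.5 and 51.5. Trib3, a pseudokinase that feeds back on ATF4, stood at 0.50 and 0.18 FPKM against 1.82 and 5.84. Sesn2, which restrains mTORC1 when leucine is short, stood at 2.70 and 2.40 FPKM against 4.43 and 5.60. These 3 genes likewise had both 0.8 g/kg libraries above both controls.

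Of 14 tested stress regulators, among them Atf4, the kinases that act before it and subunits of their target complexes, 7 had both 0.8 g/kg libraries below both controls (50%, against 22.5% of all genes) and 1 above, with a median difference of -0.11. The median was -0.16 between the TALL2 libraries and -0.05 between the TALL3 libraries. With median-of-ratios scaling 5 were below (35.7%, against 16.6% of all genes) and 2 above (14.3%, against 15.7%). Atf4 itself stood at 80.3 and 76.2 FPKM at 8 g/kg and at 66.2 and 75.9 FPKM at 0.8 g/kg, so both 0.8 g/kg libraries were below the controls, the TALL3 library by little. Ddit3 (CHOP), a death-promoting factor that overlaps Mars on the other strand, stood at 9.19 and 10.1 FPKM against 10.22 and 10.97, slightly above the controls in both. Ppp1r15a (GADD34), which reverses the block on translation, stood at 14.5 and 7.31 FPKM against 11.2 and 8.61, so its groups overlapped. Atf3, a stress-induced repressor, was at most 0.39 FPKM in these 4 libraries. Herpud1, a component of protein disposal at the endoplasmic reticulum, stood at 18.1 and 18.7 FPKM against 18.0 and 25.3. Atf3 and Herpud1 hold the promoter letters TGATGNAA, and their groups overlapped, unlike those of Asns, Pck2 and Aars.

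**Figure D1:**
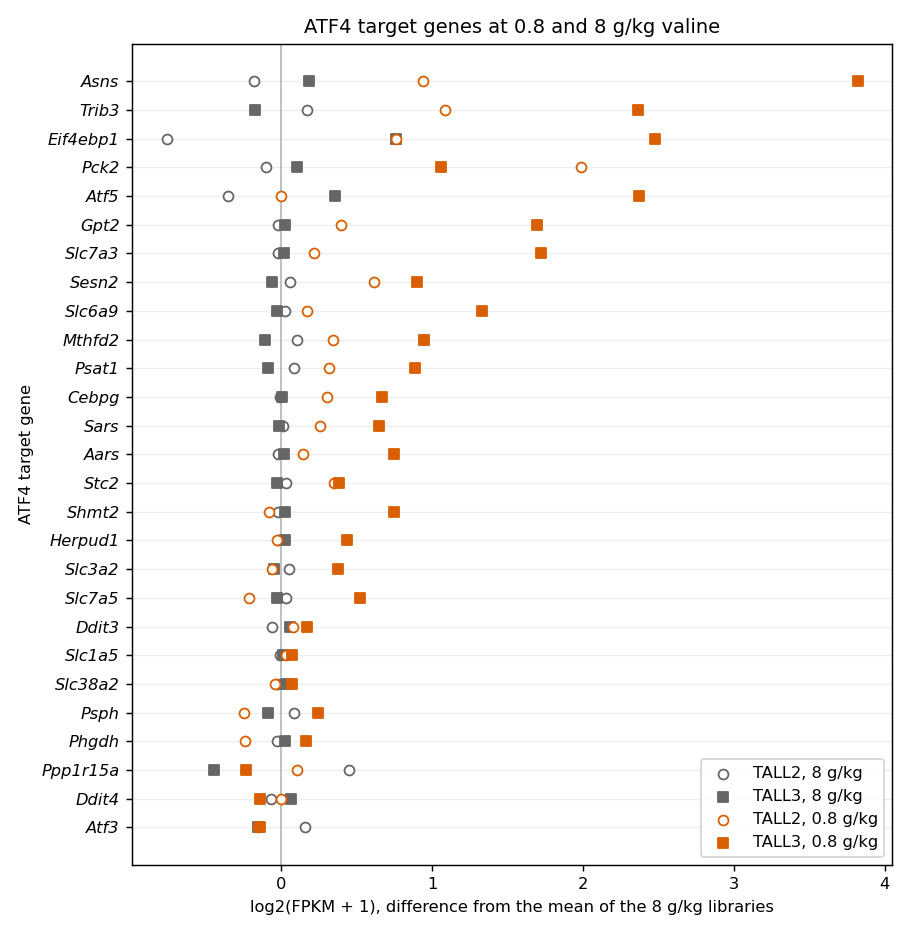
The 27 tested ATF4 targets, each as the difference of log2(FPKM + 1) from the mean of both 8 g/kg libraries (grey), with the 0.8 g/kg libraries in orange, TALL2 as open circles and TALL3 as filled squares. The TALL3 library at 0.8 g/kg lies far to the right for Asns (47.5 FPKM), while for Pck2 the TALL2 library (18.2 FPKM) lies further right.

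Genes that handle valine and its charging showed small differences apart from Bcat1. Vars, which charges transfer RNA with valine in the cytosol, stood at 149 and 146 FPKM at 8 g/kg and at 145 and 160 FPKM at 0.8 g/kg. Its mitochondrial counterpart Vars2 stood at 16.8 and 19.5 FPKM against 17.6 and 21.1. The groups overlapped in both genes. Bcat1, the cytosolic enzyme that transfers the amino group from valine, leucine and isoleucine, lies on chr6:144993835-145076184, minus strand. Bcat1 stood at 3.24 and 2.17 FPKM at 8 g/kg and at 5.40 and 6.83 FPKM at 0.8 g/kg, a log2 difference of 0.95 with a standard error of 0.22 (limma, unadjusted p = 0.0049, adjusted p = 0.998). Both low-valine libraries were above both controls, and the log2 difference was 0.60 between the TALL2 libraries and 1.30 between the TALL3 libraries. Bcat2, the mitochondrial form of the same enzyme, stood at 25.4 and 24.0 FPKM against 25.2 and 25.7. Of 27 tested genes of branched-chain amino acid breakdown 3 had both 0.8 g/kg libraries above both controls (11.1%, against 10.6% of all genes). In 5 they were below (18.5%, against 22.5%), and the median difference was -0.05, close to that of all genes. With median-of-ratios scaling 7 were above (25.9%, against 15.7% of all genes) and 3 below (11.1%, against 16.6%). With TALL2 at 0.8 g/kg left out the median was -0.07.

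Amino acid transporters had a smaller median difference than the ATF4 targets, 6 of which are among them. Slc7a5, the light chain of the LAT1 carrier that brings in valine and leucine, stood at 93.4 and 89.7 FPKM at 8 g/kg and at 79.0 (TALL2) and 132 FPKM (TALL3) at 0.8 g/kg. Its heavy chain Slc3a2 stood at 66.0 and 61.4 FPKM against 61.0 and 83.0. In both genes the TALL2 library at 0.8 g/kg was the lowest of the 4 and the TALL3 library the highest. The glutamine carrier Slc1a5 was at 87.1 and 88.2 FPKM against 89.5 and 92.2. Over 19 tested transporters the median difference was 0.13, with 5 above (26.3%, against 10.6% of all genes) and 1 below both controls. With median-of-ratios scaling 7 were above (36.8%, against 15.7%) and 1 below. With the deposited scaling the 13 that are not ATF4 targets had 2 above and 1 below. With TALL2 at 0.8 g/kg left out the median over all 19 was 0.04, and with TALL3 left out it was 0.07. The 1 below was Slc6a6, the taurine carrier, at 39.1 and 34.4 FPKM against 26.6 and 23.8. Phgdh, the first enzyme of serine synthesis, was at 36.6 and 38.0 FPKM against 31.5 and 41.9. Over 24 cytosolic transfer RNA synthetases the median difference was 0.10. Of these, 5 were above (20.8%, against 10.6% of all genes) and 4 below (16.7%, against 22.5%). The 22 that are not ATF4 targets had 3 above (13.6%) and 4 below, with a median of 0.07. Over all 24 the median was -0.03 with TALL3 at 0.8 g/kg left out and 0.16 with TALL2 left out. With median-of-ratios scaling 9 of the 24 were above (37.5%, against 15.7% of all genes) and 3 below. Of the 22, 7 were then above (31.8%) and 3 below.

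**Figure D2:**
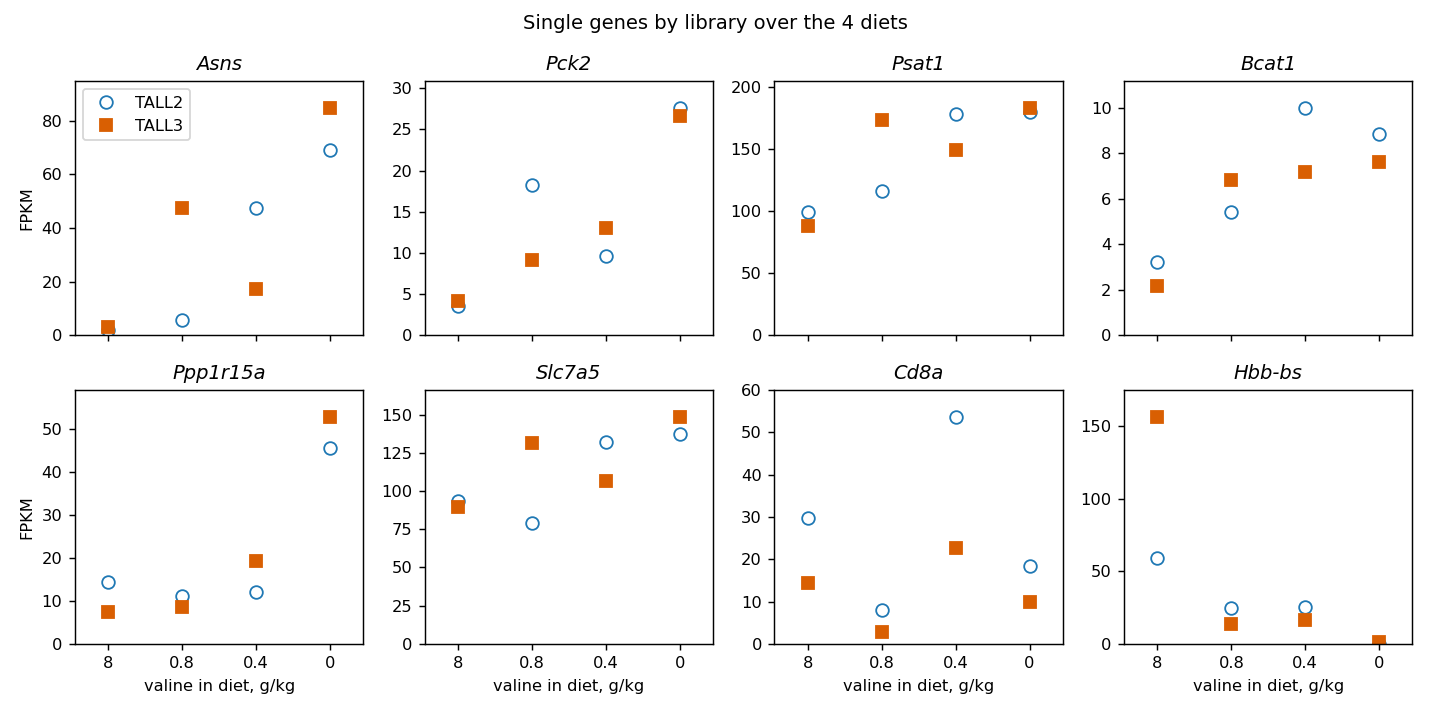
FPKM of 8 genes in each library (linear axes from 0) over the 4 diets in g/kg valine, TALL2 as open circles and TALL3 as filled squares, 1 point per library. At 0.8 g/kg the libraries are far apart for Asns (5.59 and 47.5) and close for Bcat1 (5.40 and 6.83).

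Chaperones of the endoplasmic reticulum tended to be higher at 0.8 g/kg. Of 24 tested, 9 had both 0.8 g/kg libraries above both controls (37.5%, against 10.6% of all genes) and 2 below, with a median difference of 0.17. Hsp90b1, the HSP90 of this compartment, stood at 127 and 134 FPKM at 8 g/kg and at 186 and 205 FPKM at 0.8 g/kg. Pdia4, which forms disulphide bonds, stood at 52.6 and 51.1 FPKM against 78.1 and 69.1. Hyou1, a large chaperone of the HSP70 family, stood at 39.6 and 42.3 FPKM against 53.1 and 53.4. For each of these 3 genes both low-valine libraries lay well above the controls and near each other, and the log2 differences were 0.58, 0.49 and 0.37 (limma, unadjusted p = 0.029, 0.022 and 0.024; all adjusted p = 0.998). The median of the chaperone pairs was 0.03 for the TALL2 libraries and 0.26 for the TALL3 libraries. The list's median was 0.06 with TALL3 at 0.8 g/kg left out and 0.29 with TALL2 at 0.8 g/kg left out.

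Genes of mitosis were higher at 0.8 g/kg, and mainly in 1 library. Of 34 tested, 10 had both 0.8 g/kg libraries above both controls (29.4%, against 10.6% of all genes) and 0 below, with a median difference of 0.28. The median was 0.11 between the TALL2 libraries and 0.44 between the TALL3 libraries, and the list's median was 0.02 with TALL3 at 0.8 g/kg left out, 0.53 with TALL2 at 0.8 g/kg left out and 0.18 with the TALL2 control left out. With median-of-ratios scaling 16 of the 34 were above both controls (47.1%, against 15.7% of all genes). Top2a, the topoisomerase of dividing cells, stood at 190 and 219 FPKM at 8 g/kg and at 246 and 303 FPKM at 0.8 g/kg. Hmmr, a spindle protein, stood at 15.5 and 18.5 FPKM against 21.5 and 32.3. Anln, which builds the cleavage furrow, stood at 11.9 and 12.2 FPKM against 14.4 and 17.7. The TALL3 library was the highest for each of these genes. Genes of DNA replication did not show the same shift. Of 40 tested, 0 were above both controls (0%, against 10.6% of all genes) and 4 below (10%, against 22.5%), so most overlapped. Their median was -0.07. With TALL2 at 0.8 g/kg left out that median was 0.14, and with TALL3 left out it was -0.27. With the TALL2 control left out it was -0.16, and with the TALL3 control left out 0.03. Cdt1, which loads the replicative helicase, stood at 79.0 and 84.4 FPKM against 47.7 and 70.8.

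Genes of the respiratory chain were slightly lower at 0.8 g/kg, as were short genes in general. Of 37 subunits of complex I, the NADH dehydrogenase of mitochondria, 14 had both 0.8 g/kg libraries below both controls (37.8%, against 22.5% of all genes) and 2 above, and their median difference was -0.08 against -0.04 for all genes. With median-of-ratios scaling 8 were below (21.6%, against 16.6% of all genes) and 3 above (8.11%, against 15.7%). The median was then -0.04, against 0.0007 for all genes. Over all genes the median difference ran from -0.06 in the shortest quintile of recovered length to -0.00 in the longest, and complex I subunits have a median length of 1046 bp. With this length trend removed, an alternative chosen after seeing the data, the complex I median was -0.01. With TALL2 at 0.8 g/kg left out it was -0.04, and with TALL3 at 0.8 g/kg left out -0.14. Ndufs3, a core subunit, stood at 34.2 and 31.6 FPKM at 8 g/kg and at 26.8 and 26.9 FPKM at 0.8 g/kg. Ndufa10 stood at 117 and 106 FPKM against 86.7 and 96.2. Ndufs1, the largest core subunit, was at 50.4 and 50.8 FPKM against 53.2 and 51.3, and Ndufb3 at 30.8 and 29.4 FPKM against 29.1 and 32.3, so single subunits differed in direction.

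Complexes II to IV had 11 of 23 tested genes below both controls and 0 above, with a median of -0.12; with median-of-ratios scaling 6 were below and 2 above. Uqcrfs1, the iron-sulphur protein of complex III, stood at 125 and 125 FPKM at 8 g/kg and at 92.8 and 106 FPKM at 0.8 g/kg. Proteins of the mitochondrial ribosome had 24 of 74 below and 4 above, with a median of -0.07. Mrps9 stood at 31.9 and 32.3 FPKM against 25.7 and 27.0, while Mrpl24 stood higher, at 71.8 and 70.6 FPKM against 84.1 and 80.8. Proteasome genes had 17 of 34 below and 1 above, with a median of -0.08. Psma6, a subunit of the core, stood at 236 and 235 FPKM against 197 and 210. These shares of lower genes stand beside 22.5% for all genes with the deposited scaling. With median-of-ratios scaling 9 proteasome genes were below (26.5%) and 4 above (11.8%). Of the mitochondrial ribosome 19 genes were then below (25.7%) and 8 above (10.8%). The 6 below and 2 above of complexes II to IV were 26.1% and 8.7%. Over all genes that scaling gave 16.6% below and 15.7% above. With TALL2 at 0.8 g/kg left out the medians were -0.04 (complexes II to IV), 0.01 (mitochondrial ribosome) and -0.05 (proteasome), and with TALL3 at 0.8 g/kg left out that of the mitochondrial ribosome was -0.17.

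Cholesterol synthesis genes were lower at 0.8 g/kg. Of 24 tested genes of cholesterol synthesis and its control, 14 had both 0.8 g/kg libraries below both controls (58.3%, against 22.5% of all genes) and 2 above, with a median of -0.27. The median was -0.44 between the TALL2 libraries and -0.09 between the TALL3 libraries. The list's median was -0.11 with the TALL2 control left out and -0.45 with the TALL3 control left out. Insig1, which holds the sterol sensor in the endoplasmic reticulum and is itself a sterol-regulated gene, stood at 15.8 and 13.7 FPKM at 8 g/kg and at 8.49 and 9.24 FPKM at 0.8 g/kg. Lss, which closes the sterol rings, stood at 7.99 and 6.44 FPKM against 4.67 and 5.09. Stard4, which carries cholesterol between membranes, stood at 11.5 and 11.2 FPKM against 6.77 and 9.47. Both low-valine libraries were below both controls in these 3 genes, and the log2 differences were -0.68, -0.48 and -0.45. Among 20 tested glycolysis genes 6 were below (30%) and 0 above, with a median of -0.17. With median-of-ratios scaling 3 were below (15%, against 16.6% of all genes) and 1 above, so their share of lower genes was near that of all genes. Eno1 (enolase) stood at 40.4 and 38.5 FPKM against 30.8 and 27.2 (log2 difference -0.43, limma, unadjusted p = 0.0035, adjusted p = 0.998), and Ldha (lactate dehydrogenase) at 352 and 357 FPKM against 289 and 308. Eno1 has processed copies elsewhere in the genome, so its level depends on how shared reads were counted. The glycolysis median was -0.07 with TALL2 at 0.8 g/kg left out.

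**Figure D3:**
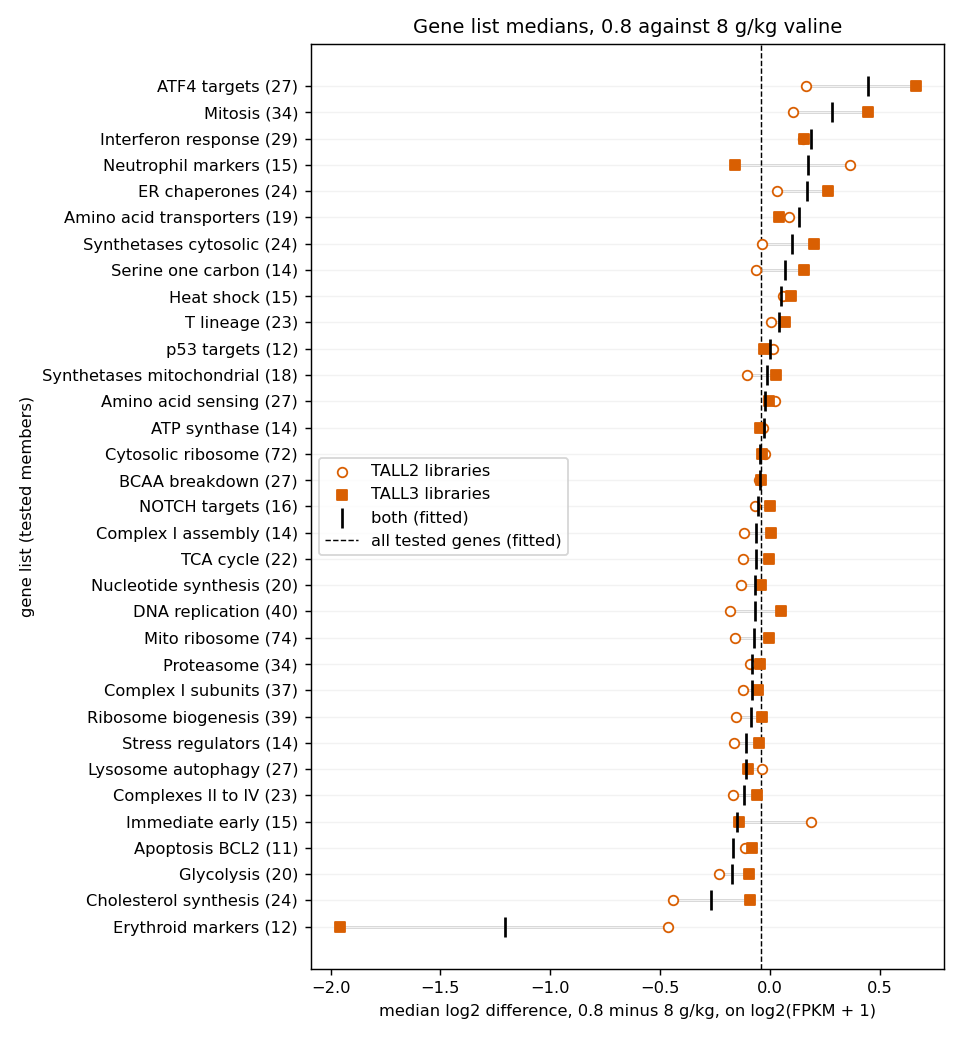
Median log2 difference (0.8 minus 8 g/kg) over the tested members of each gene list with at least 10 of them: both libraries fitted (bars), the TALL2 libraries alone (open circles) and the TALL3 libraries alone (filled squares). The dashed line is the median of all tested genes, -0.04; ATF4 targets stand at 0.45 and erythroid markers at -1.21.

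The single genes with the smallest p ranged from small differences with near-equal pairs, such as Top1, to large ones with unequal pairs, such as Pck2. Among those higher at 0.8 g/kg, Ccdc91, which takes part in traffic from the Golgi, stood at 5.12 and 6.41 FPKM at 8 g/kg and at 9.68 and 10.4 FPKM at 0.8 g/kg. Mettl3, the RNA adenosine methyltransferase, stood at 15.6 and 15.6 FPKM against 21.5 and 22.7. Top1 (topoisomerase I) stood at 72.7 and 71.8 FPKM against 88.3 and 86.9. Apip, an enzyme of methionine salvage, stood at 10.5 and 10.4 FPKM against 14.3 and 13.9. The others were Taf15, Rdm1, Rmi2 and Dzip3, with log2 differences of 0.50, 0.70, 0.41 and 0.57, and Pck2 and Bcat1, given above. All 10 had an unadjusted p between 0.0017 and 0.0069 and an adjusted p of 0.998 in limma.

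Among the genes lower at 0.8 g/kg, Usp3, a histone deubiquitinase, stood at 57.5 and 58.0 FPKM at 8 g/kg and at 43.0 and 43.7 FPKM at 0.8 g/kg. Rbm3, an RNA-binding protein known from cold stress, stood at 34.8 and 33.3 FPKM against 23.7 and 25.7. Tfpt stood at 16.4 and 15.6 FPKM against 11.2 and 10.8. Zdhhc4 and Kctd2 had log2 differences of -0.39 and -0.43. The non-coding genes Gm20033 and Gm16124 had -1.06 and -0.71, and both lie opposite a coding gene, Klf3 and Cul5. Tfpt overlaps Ndufa3 and Rbm3 overlaps Rbm3os on the other strand, and Usp3 and Zdhhc4 also overlap a gene there. Among the higher genes given above, Mettl3 overlaps Tox4 on the other strand, and Ccdc91, Pck2, Bcat1 and Rmi2 also have such neighbours. The library kit keeps strand, but whether the counting used it is not given in the sources used here, so reads of such neighbours may be shared. Hba-a1 and Hba-a2, haemoglobin genes treated with the erythroid markers, were also among the lower genes with the smallest p.

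NOTCH targets and T-lineage genes had list medians close to the control. Of 16 tested NOTCH targets 1 was above both controls (6.25%, against 10.6% of all genes) and 1, Myc, below (6.25%, against 22.5%). Differences of single targets ran from -0.77 to 0.28, and the list's median was -0.06. It was 0.07 with TALL2 and -0.20 with TALL3 at 0.8 g/kg left out, and 0.01 and -0.01 with the TALL2 and the TALL3 control left out. Notch1 stood at 292 and 408 FPKM at 8 g/kg and at 267 and 417 FPKM at 0.8 g/kg, so TALL3 was the higher in both diets. The targets Hes1 and Dtx1 stood at 99.8 and 76.3 against 75.7 and 92.1 FPKM and at 512 and 489 against 512 and 527 FPKM. Myc, a growth driver downstream of NOTCH1, stood at 267 and 222 FPKM against 185 and 202, a log2 difference of -0.34 with a standard error of 0.19 (limma, unadjusted p = 0.13). Among 23 tested T-lineage genes, whose defining members Tcf7 and Thy1 were at 1172 to 1240 and 862 to 1026 FPKM in the 4 libraries, the median difference was 0.04. With TALL3 at 0.8 g/kg left out that median was -0.14, and with TALL2 left out it was 0.17. With the TALL2 control left out it was -0.11, and with the TALL3 control left out 0.16.

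Cd8a, a chain of the CD8 co-receptor on chr6:71373427-71379173, plus strand, had the most negative difference among the tested T-lineage genes. Cd8a stood at 29.8 (TALL2) and 14.3 FPKM (TALL3) at 8 g/kg, at 7.94 and 2.90 FPKM at 0.8 g/kg, at 53.7 and 22.7 FPKM at 0.4 g/kg and at 18.4 and 9.79 FPKM at 0 g/kg. The TALL2 library was the higher on every diet, and both 0.8 g/kg libraries were below the other 6. The log2 difference from control was -1.88 with a standard error of 0.62 (limma, unadjusted p = 0.022, adjusted p = 0.998). Dntt, the enzyme that adds bases to T-cell receptor joints in immature cells, stood at 100 and 266 FPKM at 8 g/kg and at 248 and 360 FPKM at 0.8 g/kg, so its groups overlapped.

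Erythroid markers were lower at 0.8 g/kg. Their summed level over 14 listed genes was 191 and 355 FPKM at 8 g/kg against 109 and 89.4 FPKM at 0.8 g/kg. Of 12 tested, 8 had both 0.8 g/kg libraries below both controls (66.7%, against 22.5% of all genes) and 0 above, with a median difference of -1.21. With TALL2 at 8 g/kg left out the median was -2.12, and with TALL3 at 8 g/kg left out it was -0.62. Hbb-bs, an adult beta globin, stood at 58.9 and 156 FPKM at 8 g/kg and at 24.4 and 13.8 FPKM at 0.8 g/kg. Hba-a1, an alpha globin, stood at 11.4 and 30.1 FPKM against 3.46 and 2.80. The log2 differences were -2.32 and -2.26 (limma, unadjusted p = 0.0088 and 0.0024; adjusted p = 0.998), and each globin has a near-identical copy, Hbb-bt and Hba-a2, so the split of reads between copies is uncertain. Tfrc, the transferrin receptor that dividing T cells also make, stood at 76.4 and 50.5 FPKM against 56.4 and 44.3. It is counted in the erythroid sums and made up much of those at 0.8 g/kg (109 and 89.4 FPKM).

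Neutrophil markers (17 listed genes) were higher at 0.8 g/kg in sum, at 1.65 and 11.8 FPKM at 8 g/kg and 15.7 and 13.3 FPKM at 0.8 g/kg. Of 15 tested, 5 had both 0.8 g/kg libraries above both controls (33.3%, against 10.6% of all genes) and 0 below, with a median difference of 0.17. Members such as Retnlg and Ltf averaged under 1 FPKM on both of these diets and passed the filter through their 0 g/kg level. The median was 0.37 between the TALL2 libraries, where the control sum was the lowest, and -0.16 between the TALL3 libraries. The summed levels of the other cell types listed here overlapped between these diets. Macrophage markers (8 listed genes) summed to 11.3 and 26.0 FPKM against 15.7 and 14.4. The 6 listed B-cell markers summed to 16.7 and 32.2 FPKM against 22.4 and 21.0. The 4 listed NK markers summed to 568 and 461 FPKM against 742 and 489, nearly all from Gzma, which leukaemic T cells can also express. The neutrophil genes S100a9 and Ngp were at 0.27 and 0.34 FPKM in the TALL2 control, where Camp and Retnlg were listed at 0. T-lineage genes summed to 4989 to 6340 FPKM in these 4 libraries. The part of erythroid or other cells in any difference named here was not tested.

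**Figure D4:**
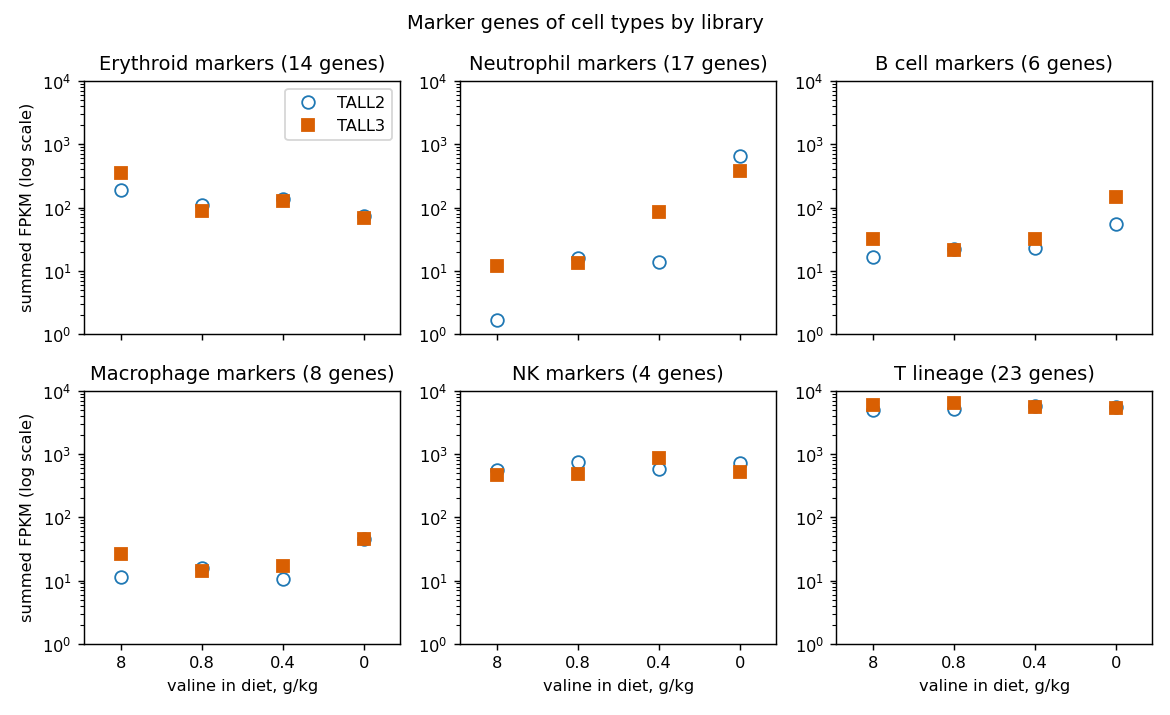
Summed FPKM (log axis) of the listed marker genes of 6 cell types in each library over the 4 diets, TALL2 as open circles and TALL3 as filled squares. Erythroid markers are higher at 8 g/kg (191 and 355) than at 0.8 g/kg (109 and 89.4), and neutrophil markers are highest at 0 g/kg (655 and 374), followed by TALL3 at 0.4 g/kg (84.5). The erythroid sums include Tfrc, which dividing T cells also make.

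Set against the diet with 0 g/kg, the 0.8 g/kg libraries had lower ATF4 targets and lower early stress genes. This comparison shares the 0.8 g/kg libraries with the one above. limma called 0 of 9943 genes (0%), with a smallest adjusted p of 0.351, 526 genes at an unadjusted p under 0.05 (5.29%; 175 higher at 0.8 g/kg, 1.76%, and 351 lower, 3.53%) and 0 calls in voom, which put 514 there. With median-of-ratios scaling 257 genes stood there higher and 272 lower, and with quantile normalization 312 and 233. Both 0.8 g/kg libraries were below both 0 g/kg libraries for 1579 genes (15.9%) and above for 944 (9.49%). Of the 27 ATF4 targets 19 were below and 0 above, with a median of -0.53. It was -0.85 with TALL2 at 0 g/kg left out, -0.36 with TALL3 at 0 g/kg left out and -0.30 with TALL2 at 0.8 g/kg left out. Among the 19 was Atf3, which averaged under 1 FPKM at 8 and 0.8 g/kg and passed the filter through the other diets. Asns stood at 69.2 and 84.6 FPKM at 0 g/kg, above the 47.5 FPKM of the highest 0.8 g/kg library. Ppp1r15a stood at 45.8 and 52.9 FPKM at 0 g/kg against 11.2 and 8.61 FPKM at 0.8 g/kg (log2 difference -2.22, standard error 0.34, limma, unadjusted p = 0.00058). So for Asns the 0.8 g/kg libraries lay between the diets with 8 and 0 g/kg, and for Ppp1r15a both lay within the range of the 8 g/kg libraries.

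Immediate-early genes respond within minutes to growth or stress signals. Of 15 tested, 11 were below the 0 g/kg libraries (73.3%, against 15.9% of all genes) and 0 above. Among the 11 was Atf3, which averaged under 1 FPKM at 8 and 0.8 g/kg. It passed the filter through the other diets, so the filter favoured its lower value at 0.8 g/kg. Without Atf3, 10 of 14 were below (71.4%), with a median of -1.31. The median of all 15 was -1.34, and -0.66 with TALL3 at 0 g/kg left out. Dusp1, a phosphatase of this class, stood at 11.4 and 11.9 FPKM at 0.8 g/kg against 62.3 and 65.8 FPKM at 0 g/kg, and at 25.2 and 9.995 FPKM at 8 g/kg. Genes of mitosis were higher at 0.8 than at 0 g/kg, with 24 of 34 above (70.6%, against 9.49% of all genes) and 0 below. Their median was 0.54, and 0.32 with TALL3 at 0.8 g/kg left out and 0.35 with TALL2 at 0 g/kg left out. Cenpf, a centromere protein, stood at 75.1 and 94.6 FPKM at 0.8 g/kg, 27.0 and 41.3 FPKM at 0 g/kg and 58.9 and 56.9 FPKM at 8 g/kg. Replication genes went the other way, with 26 of 40 below the 0 g/kg libraries (65%, against 15.9% of all genes) and 0 above. Their median was -0.32. With TALL3 at 0.8 g/kg left out that median was -0.53, and with TALL2 left out it was -0.13. Of the complex I subunits 7 were above (18.9%, against 9.49% of all genes) and 0 below, with a median of 0.07. With the length trend removed it was 0.16, with TALL2 at 0 g/kg left out 0.15, and with TALL3 at 0 g/kg left out 0.04. With TALL2 at 0.8 g/kg left out it was 0.12, and with TALL3 at 0.8 g/kg left out 0.04. With median-of-ratios scaling 18 subunits were above (48.6%, against 13.8% of all genes) and 0 below (against 12.4%).

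Of the gene lists, neutrophil markers had the largest median difference between these diets. Their summed level was 655 and 374 FPKM at 0 g/kg against 15.7 and 13.3 FPKM at 0.8 g/kg. Of 15 tested members 14 were below (93.3%, against 15.9% of all genes), with a median of -3.49. Members such as Retnlg, Camp and Ltf averaged under 1 FPKM at 8 and 0.8 g/kg. They passed the filter through their 0 g/kg level, so the filter itself favoured lower values at 0.8 g/kg, and this count and median only describe the listed members. The genes with the smallest p among the lower ones were Retnlg, Camp, Pglyrp1, Ltf and Ifitm6, known from neutrophils and other myeloid cells. Retnlg stood at 0.99 and 0.19 FPKM at 0.8 g/kg against 17.4 and 13.1 FPKM at 0 g/kg. Those among the higher ones were Cenpf, Hbb-bs, 2610318N02Rik, Cep89 and Ccnb2. By list median, neutrophil markers, ATF4 targets and immediate-early genes were each higher at 0 than at 0.8 g/kg. Within the 0 g/kg diet the neutrophil sum was higher in TALL2. There the median log2 deviation from each gene's mean over the 8 libraries was 0.30 (TALL2) and 0.83 (TALL3) for ATF4 targets. For immediate-early genes it was 0.25 and 1.42. The part of neutrophils in these differences was not tested, and nothing about it is read from these 2 libraries.

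Set against 0.4 g/kg, fewer genes had a low p than in the other comparisons, and the 0.8 g/kg libraries are again shared. limma called 0 of 9943 (0%), with 86 at an unadjusted p under 0.05 (0.865%; 59 higher at 0.8 g/kg, 0.593%, and 27 lower, 0.272%). In voom 0 were called and 108 had such a p. That count of 86 became 310 with TALL2 at 0.8 g/kg left out and 274 with TALL3 at 0.8 g/kg left out. Both 0.8 g/kg libraries were above both 0.4 g/kg libraries for 1294 genes (13%) and below for 794 (7.99%). Of the ATF4 targets 1 was above and 3 below, with a median of -0.16. The median became 0.11 with TALL2 at 0.8 g/kg left out, -0.43 with TALL3 at 0.8 g/kg left out and -0.06 with TALL2 at 0.4 g/kg left out. Asns stood at 47.3 (TALL2) and 17.1 FPKM (TALL3) at 0.4 g/kg, so the highest library was TALL3 at 0.8 g/kg and TALL2 at 0.4 g/kg. Genes of mitosis had 0 above and 0 below, with a median of -0.10, and of 0.16 with TALL2 and -0.35 with TALL3 at 0.8 g/kg left out, and of -0.05 with TALL2 at 0.4 g/kg left out. The higher genes by smallest p were Gm973, Slc2a9, Trp53bp2, Snhg6 and Fbxw8, and the lower ones Rmi2, Cd8a, Klhl23, Hells and F2. Hells, a chromatin remodeller of dividing cells, stood at 27.1 and 32.3 FPKM at 0.8 g/kg, 38.7 and 37.5 FPKM at 0.4 g/kg and 48.3 and 46.4 FPKM at 0 g/kg, with 30.1 and 29.4 FPKM at 8 g/kg.

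**Figure D5:**
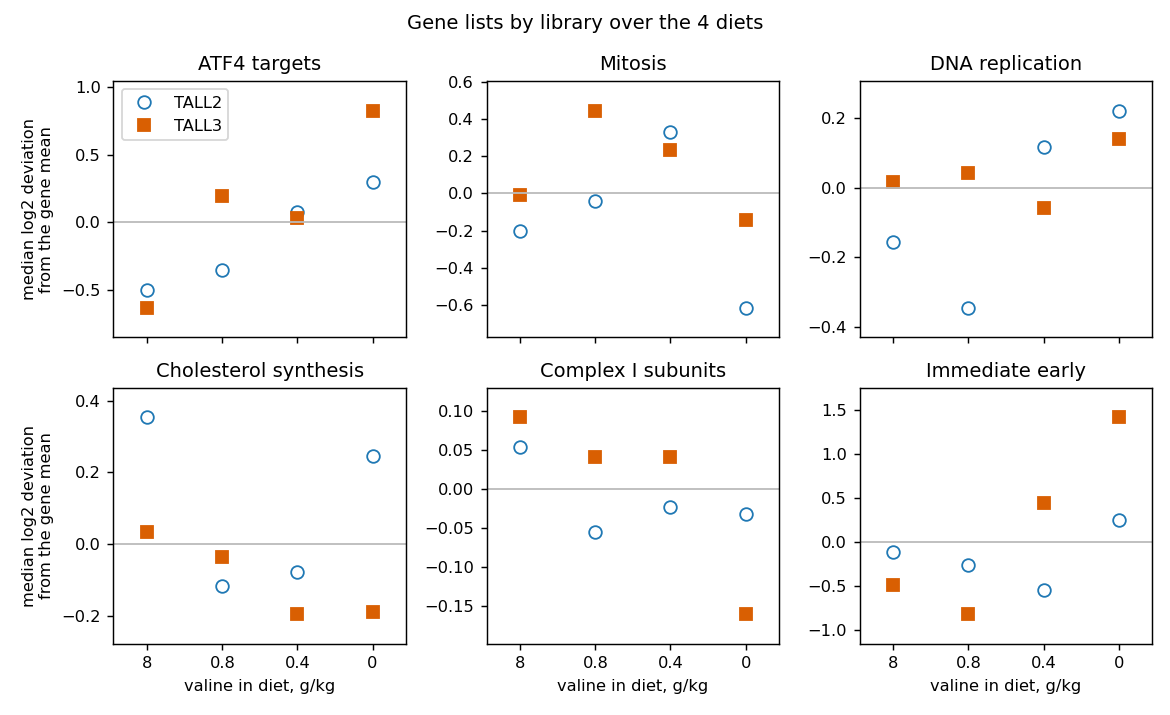
Median log2 deviation of the members of 6 gene lists from each gene's mean over the 8 mouse libraries, by diet in g/kg valine, with TALL2 as open circles and TALL3 as filled squares. ATF4 targets stand at -0.50 and -0.63 at 8 g/kg, at -0.35 and 0.19 at 0.8 g/kg, and at 0.30 and 0.83 at 0 g/kg.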

How the data were processed

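The values the authors deposited are FPKM for each gene in each of 8 mouse libraries; a human table was not used here. STAR, edgeR and build mm10 are named, without roles, in the submitters' processing notes. The gene model, gene lengths and strand setting of the counting were not given in the sources used here. Read numbers were recovered from whole-number ratios between FPKM values of a gene; the lengths that follow were whole within 0.01 bp for 99.9% of genes. They served for depth (14222895 to 37687253 reads per library), for comparing libraries of 1 diet and for limma-voom. The 318 genes without a symbol were named from a reference list. Coordinates are from GENCODE M21 (GRCm38) and promoter letters from RefSeq (GRCm38.p6).

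The main test was limma 3.58.1 (R 4.3.3) with an intensity trend on log2(FPKM + 1) of genes averaging 1 FPKM or more. It was two-sided, fitted the 4 diets together, and adjusted p by Benjamini-Hochberg over 9943 genes (threshold 0.05). Differences on this scale understate those of low genes. Scripts were tested on simulated data (Python 3.11.15). Members, gene lists and tests were chosen with earlier results of these data known. Named genes were the 10 per direction with the smallest p among genes whose groups do not overlap and whose higher group averages 5 FPKM or more (5 per direction against 0 and 0.4 g/kg), a set of valine, stress, complex I and NOTCH genes, the 3 members of each list with the smallest p, and the 2 most abundant markers of each cell type. Atf3 and Herpud1, outside this rule, were named for their promoter letters after their values were seen. A gene that this rule selects is not reported here.

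The alternatives changed the pseudocount (0.1 or 5), the filter (none, or 5 FPKM), the scaling (median-of-ratios or quantile), the variance trend, the use of other diets in the fit, the replicate block and the tool (voom), and left out each library in turn. Removing the length trend was added after seeing the data.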

Additional observations from a re-analysis of the deposited data

How the results depend on the processing

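Among the alternatives to the scaling, filter and pseudocount, 0 genes were called in any comparison. With the replicate block 0.8 against 0.4 g/kg gave 1 call, Cd8a (log2 difference -2.61, adjusted p = 0.018 in limma), and 0.8 against 8 and 0 g/kg gave 0, with 542 and 703 genes at an unadjusted p under 0.05 (144 for 0.4 g/kg); the block changed no other call. Fitting only the 2 diets compared put 240 genes there against 0 g/kg, in place of 526. TALL2 minus TALL3 differences correlated across genes between diets by -0.17 (0.8 and 0.4 g/kg) to 0.74 (8 and 0.8 g/kg), so the shared number was not taken as pairing. The gene counts at an unadjusted p under 0.05 for 0.8 against 8 g/kg split into 204 higher and 196 lower with median-of-ratios scaling, 193 and 190 with quantile normalization, 210 and 181 with the length trend removed and 208 and 204 in voom, against 114 and 319. Of the named results, Phgdh against 8 g/kg turned to 0.0081 (median-of-ratios), 0.02 (voom) and 0.0217 (length trend removed), and Dtx1 to -0.0312 (quantile). Medians that moved were amino acid transporters (0.18 with median-of-ratios and 0.18 in voom), complex I (-0.0083 without the length trend, and 0.16 against 0 g/kg), proteasome (-0.0246 without the length trend), erythroid markers (-0.75 with a pseudocount of 5) and neutrophil markers against 0 g/kg (-5.33 and -1.85 with pseudocounts of 0.1 and 5, -4.62 with a filter at 5 FPKM, -5.56 in voom).

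Leaving out each library in turn, for 0.8 against 8 g/kg, moved the genes not overlapping to 2031 to 3032 (higher) and 3692 to 4488 (lower), since fewer libraries must then be apart. List medians ranged from 0.15 to 0.67 (ATF4 targets), 0.0449 to 0.14 (amino acid transporters), -0.026 to 0.16 (synthetases), 0.0203 to 0.53 (mitosis), -0.27 to 0.14 (replication), -0.25 to -0.0705 (glycolysis), -0.14 to -0.0366 (complex I), -0.17 to 0.0146 (mitochondrial ribosome), -0.20 to 0.072 (NOTCH targets), -0.14 to 0.17 (T-lineage) and -2.12 to -0.62 (erythroid). Against 0 g/kg they ranged from -0.85 to -0.30 (ATF4 targets), 0.32 to 0.81 (mitosis), -0.53 to -0.13 (replication), 0.0354 to 0.15 (complex I) and -1.72 to -0.66 (immediate-early), and against 0.4 g/kg from -0.43 to 0.11 (ATF4 targets) and -0.35 to 0.16 (mitosis). The differences of named genes that changed sign ranged from -0.31 to 0.007 (Atf3), -0.0278 to 0.44 (Herpud1), -0.21 to 0.52 (Slc7a5), -0.0621 to 0.38 (Slc3a2), -0.52 to 0.38 (Ppp1r15a), -0.026 to 0.11 (Vars), -0.0408 to 0.21 (Vars2), -0.24 to 0.16 (Phgdh), -0.0447 to 0.10 (Ndufb3), -0.37 to 0.27 (Notch1), -0.26 to 0.13 (Hes1), -0.038 to 0.17 (Thy1), -0.0596 to 0.53 (Gzma) and, against 0.4 g/kg, -2.17 to 0.71 (Asns). The cause of these changes was not tested. Libraries of 1 diet differed by more than counting noise, so depth alone does not give the error of these comparisons.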

Other observations

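The heat-shock list holds mainly chaperones of the cytosol and of mitochondria, which fold newly made or damaged proteins. Of its 15 tested members, 8 were above both controls at 0.8 g/kg (53.3%, against 10.6% of all genes) and 2 below (13.3%, against 22.5%). The median difference was 0.05. Hsph1, a large cytosolic chaperone, stood at 14.5 and 12.9 FPKM at 8 g/kg and at 29.5 (TALL2) and 18.4 FPKM (TALL3) at 0.8 g/kg, so here TALL2 was the higher library. Interferon-response genes had 6 of 29 above (20.7%) and 1 below (3.45%). Ddx58 (RIG-I), a sensor of viral RNA, stood at 4.28 and 5.44 FPKM against 9.43 and 7.81. Oasl2, another gene of this response, stood at 3.13 and 2.36 FPKM against 5.11 and 3.32.

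Genes of ribosome assembly had 4 of 39 above (10.3%, near the 10.6% of all genes) and 13 below both controls (33.3%, against 22.5%). Pes1, which processes ribosomal RNA of the large subunit, stood at 50.2 and 52.5 FPKM at 8 g/kg and at 41.2 and 42.0 FPKM at 0.8 g/kg. Nolc1, a nucleolar phosphoprotein, stood at 73.9 and 89.8 FPKM at 0.8 g/kg, below both controls. Among 27 tested genes of amino acid sensing by mTORC1, 5 were above (18.5%) and 9 below (33.3%). With median-of-ratios scaling 9 were above (33.3%, against 15.7% of all genes) and 6 below (22.2%, against 16.6%). The 25 that are not ATF4 targets had 3 above (12%, near the 10.6% of all genes) and 9 below (36%). With median-of-ratios scaling these 25 had 7 above (28%) and 6 below (24%). Mios, a subunit of the GATOR2 complex in that pathway, stood at 21.8 and 20.1 FPKM against 15.5 and 16.4. Against 0.4 g/kg, 31 of 72 tested genes of the cytosolic ribosome were higher at 0.8 g/kg and 3 were lower, beside 13% and 7.99% of all genes; many of these genes have processed copies.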
